A study of Mus musculus with 12 samples.

Results

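The p53 target and growth arrest genes described here are 10 genes, Cdkn1a, Btg2, Gadd45a, Mdm2, Ccng1, Bax, Trp53inp1, Phlda3, Sesn2 and Gdf15. They were taken by name from both deposited expression tables, which list 41743 genes each. All 10 were found once in each table. No cutoff on measured values chose them, but they were chosen with earlier results of these data known. Expression was measured by RNA sequencing of whole liver from 12 female mice aged 3 to 4 months, in 4 groups of 3. YAPKO mice carried Foxa3-Cre, Yap1 fl/fl and ROSA-stop fl/fl-EYFP on a C57BL/6 background. Their labels read YAP1 KO, and they were compared with WT littermates, called WT (C57BL/6). YAPKO TAZHET mice carried Foxa3-Cre and Yap1 fl/fl and had in addition lost 1 copy of Wwtr1, which encodes TAZ, on a mixed C57BL/6-FVB background. Their labels abbreviate the genotype as YKTH, and they were compared with their own WT littermates, called WT (mixed). Foxa3 drives Cre in the foregut endoderm of the embryo, so that hepatocytes and bile duct cells descend from cells that had Cre, whereas blood, endothelial and stellate cells of the same liver do not. The RNA came from all cells of the tissue, and fewer cells of a type cannot be told apart from less RNA per cell.

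The p53 protein is a transcription factor that is held at low levels by the ubiquitin ligase Mdm2 and accumulates when a cell meets DNA damage or other stress. It then binds DNA as a tetramer and raises genes that stop the cell cycle, repair damage or start apoptosis, and it raises Mdm2, which closes a feedback loop. Most of these genes also answer to other signals. Cdkn1a, Btg2, Gadd45a and Gdf15 are known to be raised in stressed or regenerating liver by pathways that do not need p53, among them MAP kinase, ATF4 and TGF-beta signalling.

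Described p53 binding sites are made of 4-base cores that read CAAG or CATG or CTAG or CTTG. In a complete site, a pair of cores stands with 6 bases between them. This arrangement reads the same on both strands and was searched for in the RefSeq promoter windows of the members on GRCm38.p6, the build of the deposited tables. Each window runs from 250 bases before to 50 bases after an annotated start site. Windows were found for 9 of the 10 genes, 11 windows in all, and none was found for Trp53inp1. The arrangement occurred in 1 of the 11 windows (9.09%), against 2371 of all 32851 windows of the reference (7.22%). The 250 bases before the start site are shown for the 4 genes that were higher than in littermates in both models, with every core in capitals, so that the difference between Cdkn1a and the others can be read. The match lies in the first Cdkn1a window at chr17:29090931-29090944, 48 to 35 bases before that start site and with its first base 2838 bases before the start site of the second window.
Cdkn1a window 1, chr17:29090729-29090978, plus strand: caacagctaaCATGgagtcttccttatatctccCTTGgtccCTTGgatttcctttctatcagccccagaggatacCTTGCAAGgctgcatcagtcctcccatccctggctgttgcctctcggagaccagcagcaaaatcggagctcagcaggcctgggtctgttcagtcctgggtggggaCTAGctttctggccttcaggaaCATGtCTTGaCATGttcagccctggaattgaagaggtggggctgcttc
Cdkn1a window 2, chr17:29093519-29093768, plus strand: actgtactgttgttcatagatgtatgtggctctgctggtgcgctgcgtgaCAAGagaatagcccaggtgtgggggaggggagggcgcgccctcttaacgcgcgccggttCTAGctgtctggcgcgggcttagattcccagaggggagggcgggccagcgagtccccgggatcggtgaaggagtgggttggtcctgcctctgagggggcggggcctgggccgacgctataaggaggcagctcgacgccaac
Btg2, chr1:134079156-134079405, minus strand: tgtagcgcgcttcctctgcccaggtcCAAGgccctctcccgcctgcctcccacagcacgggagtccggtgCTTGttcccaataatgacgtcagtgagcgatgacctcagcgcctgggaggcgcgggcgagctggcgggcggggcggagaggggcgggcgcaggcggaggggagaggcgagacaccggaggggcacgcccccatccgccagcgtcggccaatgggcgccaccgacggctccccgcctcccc
Bax, chr7:45466899-45467148, minus strand: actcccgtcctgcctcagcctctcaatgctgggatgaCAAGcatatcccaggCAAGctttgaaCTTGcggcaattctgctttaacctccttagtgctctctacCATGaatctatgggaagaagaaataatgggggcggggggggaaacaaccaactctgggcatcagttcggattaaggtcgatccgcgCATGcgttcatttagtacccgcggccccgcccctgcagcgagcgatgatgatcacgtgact
Phlda3, chr1:135765835-135766084, plus strand: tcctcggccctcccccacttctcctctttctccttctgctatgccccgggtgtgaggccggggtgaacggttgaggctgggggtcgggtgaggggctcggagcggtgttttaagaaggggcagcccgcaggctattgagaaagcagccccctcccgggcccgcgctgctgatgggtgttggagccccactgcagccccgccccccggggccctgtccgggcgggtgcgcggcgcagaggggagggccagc
The first Cdkn1a stretch held 9 cores. Bax held 5 cores, Btg2 held 2, the second Cdkn1a stretch held 2 and Phlda3 held 0. These counts describe letters in short windows and say nothing about binding, and p53 sites farther from the start or within introns lie outside them.

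Values are TPM, in which reads are corrected for transcript length and every library is set to the same total. That total was 1000000, so the depth behind each value is unknown, and the only error available is how far the 3 mice of each group differ. The libraries were scaled to each other, and log2(scaled TPM + 1) was tested with limma and Benjamini-Hochberg adjustment over all genes that reached 1 TPM in 3 or more libraries. On this scale the change of genes of low level is understated. Without scaling the median gene lay 0.28 above littermates in YAPKO livers and 0.24 in YAPKO TAZHET livers on the log2 scale, and 84.0% and 82.2% of the genes called were higher, against 51.3% and 50.2% with scaling. Changes are therefore given relative to the scaled libraries. The genes above 0 numbered 14442 to 15047 per library. Exact permutation tests of 3 mice against 3 cannot give a p below 0.1.

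Yap1 was 30.5, 30.4 and 28.2 TPM in WT (C57BL/6) livers and 3.72, 1.93 and 1.67 TPM in YAPKO livers, and 33.2, 32.3 and 31.0 TPM in WT (mixed) livers and 8.63, 9.20 and 11.5 TPM in YAPKO TAZHET livers. It was lower in every knockout liver. Wwtr1 was 6.83, 6.26 and 6.28 TPM in WT (C57BL/6) livers and 16.7, 13.3 and 13.7 TPM in YAPKO livers. In the livers labelled YAPKO TAZHET it was 14.1, 11.8 and 11.5 TPM, above the 7.73 to 8.38 TPM of WT (mixed) livers. After scaling, the log2 rise of Wwtr1 in YAPKO livers was 0.73 (limma adjusted p = 0.00186). The log2 fold change in YAPKO TAZHET livers was 0.26 (limma adjusted p = 0.0743), which did not pass the test. The Wwtr1 level of whole liver was thus not below that of littermates and gives no check of the loss of 1 copy, so that YAPKO TAZHET stands here for the group as labelled.

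In YAPKO livers 6 of the 10 genes were higher than in WT (C57BL/6) livers at an adjusted p under 0.05, namely Cdkn1a, Btg2, Gdf15, Phlda3, Bax and Mdm2, and 0 were lower. Of all 11704 genes tested, 18.8% were called higher and 17.9% lower. In YAPKO TAZHET livers 4 of the 10 were higher than in WT (mixed) livers, namely Cdkn1a, Btg2, Phlda3 and Bax, and 1, Gadd45a, was lower, against 19.2% of 11741 genes called higher and 19.0% lower. The median log2 fold change of the 10 genes was 0.48 in YAPKO livers and -0.01 in YAPKO TAZHET livers, beside -0.04 for all genes tested in either model. All 10 genes were tested in both comparisons. Cdkn1a was under 1 TPM in 4 of the 6 WT livers and reached the filter only through the knockout livers, so that it could be tested only because it was higher there. After scaling, 7 of the 10 lay above all 3 littermates in all 3 YAPKO livers (24.9% of genes tested) and 4 of the 10 did so in YAPKO TAZHET livers (24.5% of genes tested).

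**Figure D1:**
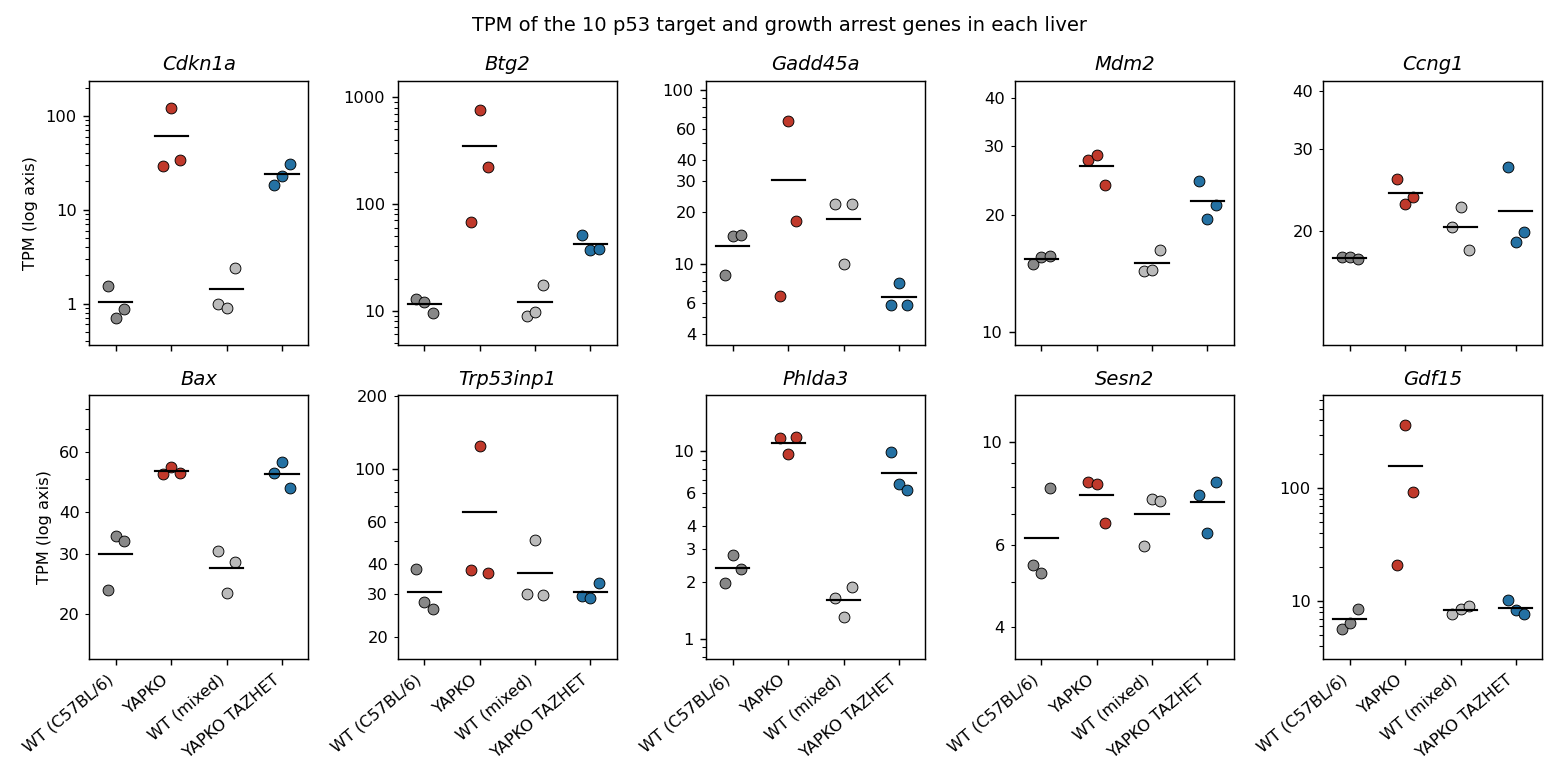
TPM of the 10 genes on a log axis in each of the 12 livers, by group, with a point per mouse and a line at the mean of 3. Cdkn1a, Btg2, Bax and Phlda3 stand above their littermates in every knockout liver, Gdf15 does so in the 3 YAPKO livers and Gadd45a lies below littermates in the 3 YAPKO TAZHET livers.

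Cdkn1a (ENSMUSG00000023067, chr17:29090976-29100727, plus strand) encodes p21, an inhibitor of cyclin-dependent kinases that stops cells before S phase. It was 1.55, 0.702 and 0.875 TPM in WT (C57BL/6) livers and 28.9, 121 and 33.5 TPM in YAPKO livers. Its WT (mixed) levels were 0.9995, 0.902 and 2.37 TPM, and in YAPKO TAZHET livers 18.4, 22.6 and 30.6 TPM. Thus the lowest knockout liver lay far above the highest WT liver in both models, and 1 YAPKO liver stood well above the other two. The ratio of mean TPM was 58.5 in YAPKO livers and 16.8 in YAPKO TAZHET livers. On the log2 scale of the test the rise was 4.37 (SE 0.51, limma adjusted p = 0.000481) and 3.13 (SE 0.28, limma adjusted p = 0.000122). Leaving out the highest YAPKO liver gave 3.69, and the rise was called in both models under every alternative tried. The change in YAPKO livers exceeded that in YAPKO TAZHET livers by 1.24 (SE 0.66, limma adjusted p = 0.999), which did not pass the test. Of its exon bases 273 overlap an unnamed transcript, AC167363.2, on the opposite strand, which is not used here, and whether the counting used strand is not given in the sources used here.

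Btg2 (ENSMUSG00000020423, chr1:134075170-134079120, minus strand) belongs to the BTG and TOB family of antiproliferative proteins, which bind the CCR4-NOT deadenylase, and it is an early response gene as well as a p53 target. Its level was 12.9, 11.99 and 9.41 TPM in WT (C57BL/6) livers and 68.1, 757 and 223 TPM in YAPKO livers. Levels in WT (mixed) livers were 8.91, 9.62 and 17.4 TPM, and in YAPKO TAZHET livers 51.2, 37.0 and 37.9 TPM. The groups did not overlap in either model, and the 3 YAPKO livers differed among themselves by more than their lowest differed from WT. The log2 rise was 3.86 (SE 0.75, limma adjusted p = 0.00524) in YAPKO livers and 1.47 (SE 0.25, limma adjusted p = 0.00263) in YAPKO TAZHET livers. Without the liver at 757 TPM the rise in YAPKO livers was 2.95. In the fit of all 12 libraries, in which the YAPKO livers add to the common spread, the rise of Btg2 in YAPKO TAZHET livers did not pass the test (1.46, limma adjusted p = 0.0877). The difference between the models was 2.39 (SE 0.90, limma adjusted p = 0.987).

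Gadd45a (ENSMUSG00000036390, chr6:67035096-67037457, minus strand) encodes a small stress protein that binds p21, PCNA and the MAP kinase kinase kinase MEKK4. It was 8.68, 14.5 and 14.8 TPM in WT (C57BL/6) livers and 6.55, 66.8 and 17.8 TPM in YAPKO livers. In WT (mixed) livers Gadd45a was 22.2, 10.03 and 22.2 TPM and in YAPKO TAZHET livers 5.82, 7.81 and 5.83 TPM. The YAPKO livers lay on both sides of their littermates, with 1 far above them and 1 below, while all 3 YAPKO TAZHET livers lay below theirs. In YAPKO TAZHET livers the gene fell by 1.58 on the log2 scale (SE 0.28, limma adjusted p = 0.00315), which was -1.57 with an adjusted p of 0.0573 in the fit of all 12 libraries. In YAPKO livers the log2 fold change was 0.34 (SE 0.70, limma adjusted p = 0.732), and it was -0.52 (limma adjusted p = 0.383) without the liver at 66.8 TPM. The models differed by 1.91 (SE 0.86, limma adjusted p = 0.999). Of the exon bases of Gadd45a 337 overlap E230016M11Rik on the opposite strand, which is listed at 0 TPM in all 12 livers.

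Mdm2 (ENSMUSG00000020184, chr10:117688875-117710758, minus strand), the ubiquitin ligase of the feedback loop, was 14.95, 15.6 and 15.7 TPM in WT (C57BL/6) livers and 27.7, 28.4 and 23.9 TPM in YAPKO livers. Its level in WT (mixed) livers was 14.4, 14.4 and 16.3 TPM, and in YAPKO TAZHET livers it was 24.4, 19.6 and 21.2 TPM. All knockout livers lay above their littermates in TPM, and after scaling the YAPKO TAZHET livers overlapped with theirs. The log2 rise was 0.41 in YAPKO livers (SE 0.11, limma adjusted p = 0.0192) and the log2 fold change was 0.19 in YAPKO TAZHET livers (SE 0.12, limma adjusted p = 0.231). The call in YAPKO livers was lost without LM189, LM192 or LM193, the mice being named by the numbers in the labels (0.33, 0.39 and 0.42, limma adjusted p = 0.0676, 0.0659 and 0.0519). Without scaling Mdm2 passed the test in YAPKO TAZHET livers too (0.50, limma adjusted p = 0.0117). Ccng1 (ENSMUSG00000020326, chr11:40748552-40755311, minus strand) encodes cyclin G1, which recruits the PP2A phosphatase to Mdm2. It was 17.4 to 17.5 TPM in WT (C57BL/6) livers and 22.9 to 25.9 TPM in YAPKO livers, and 18.1 to 22.5 TPM in WT (mixed) livers and 18.9 to 27.4 TPM in YAPKO TAZHET livers. Its log2 fold changes were 0.10 (SE 0.09, limma adjusted p = 0.441) and -0.21 (SE 0.14, limma adjusted p = 0.261). The YAPKO livers stood apart from their littermates also after scaling, but the test was passed only without scaling (0.44, limma adjusted p = 0.00868).

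Bax (ENSMUSG00000003873, chr7:45461697-45466898, minus strand), whose product opens the outer mitochondrial membrane in apoptosis, was 23.6, 33.9 and 32.8 TPM in WT (C57BL/6) livers and 51.5, 54.1 and 52.1 TPM in YAPKO livers. The WT (mixed) levels of Bax were 30.7, 23.1 and 28.5 TPM, and in YAPKO TAZHET livers 51.9, 56.0 and 46.9 TPM. The 6 knockout livers lay close together and above every WT liver. The log2 rise was 0.45 (SE 0.14, limma adjusted p = 0.0341) in YAPKO livers and 0.58 (SE 0.12, limma adjusted p = 0.00728) in YAPKO TAZHET livers, and the models differed by -0.14 (SE 0.19, limma adjusted p = 0.999). In YAPKO livers the call was lost without LM75, LM189 or LM191 (0.32, 0.40 and 0.43, limma adjusted p = 0.067, 0.114 and 0.103) and, with every gene above 0 tested, Bax lay at the threshold (limma adjusted p = 0.0501). Of its exon bases 192 overlap Gm45808 on the same strand, and reads of these bases cannot be told apart, but Gm45808 reached at most 1.35 TPM in any liver.

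Phlda3 (ENSMUSG00000041801, chr1:135766119-135769136, plus strand) encodes a pleckstrin homology domain protein that competes with the kinase Akt for membrane lipids. It was 1.99, 2.81 and 2.37 TPM in WT (C57BL/6) livers and 11.7, 9.61 and 11.8 TPM in YAPKO livers. Its WT (mixed) levels were 1.65, 1.30 and 1.88 TPM and its YAPKO TAZHET levels 9.92, 6.66 and 6.21 TPM. Mean Phlda3 was 11.03 ± 1.23 TPM (SD, n = 3) in YAPKO livers and 7.60 ± 2.03 TPM (SD, n = 3) in YAPKO TAZHET livers, and the ratio to the littermates' mean was 4.62 and 4.72. The log2 rise was 1.54 (SE 0.13, limma adjusted p = 0.000111) and 1.46 (SE 0.17, limma adjusted p = 0.000397), called under every alternative, and the difference between the models was 0.08 (SE 0.22, limma adjusted p = 0.999). Phlda3 was also the only member with an unadjusted p under 0.05 between the WT groups, with a log2 fold change of -0.41 in WT (mixed) against WT (C57BL/6) livers (limma adjusted p = 0.762).

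Trp53inp1 (ENSMUSG00000028211, chr4:11156431-11174379, plus strand) encodes a nuclear and autophagy protein that promotes the phosphorylation of p53. It was 38.2, 27.8 and 26.1 TPM in WT (C57BL/6) livers and 37.8, 125 and 36.7 TPM in YAPKO livers, so that 1 YAPKO liver stood far above the rest and the other two overlapped with WT. In WT (mixed) livers Trp53inp1 was 29.9, 50.6 and 29.8 TPM and in YAPKO TAZHET livers 29.5, 28.9 and 33.4 TPM. The log2 fold change was 0.51 (SE 0.45, limma adjusted p = 0.409) in YAPKO livers, -0.09 (limma adjusted p = 0.747) without the high liver, and -0.53 (SE 0.21, limma adjusted p = 0.0836) in YAPKO TAZHET livers. Without LM226 the last became -0.69 (limma adjusted p = 0.0484). After scaling, Trp53inp1 and Gadd45a were the 2 members that lay below all littermates in all YAPKO TAZHET livers.

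Sesn2 (ENSMUSG00000028893, chr4:132492032-132510501, minus strand) encodes sestrin 2, a leucine sensor that restrains mTORC1. It was 5.22 to 7.95 TPM in WT (C57BL/6) livers, 6.68 to 8.20 TPM in YAPKO livers, 5.95 to 7.53 TPM in WT (mixed) livers and 6.36 to 8.17 TPM in YAPKO TAZHET livers. These ranges overlapped, and the log2 fold changes were -0.03 (SE 0.17, limma adjusted p = 0.902) and -0.21 (SE 0.15, limma adjusted p = 0.314). Gdf15 (ENSMUSG00000038508, chr8:70629393-70632456, minus strand) encodes a secreted TGF-beta family hormone that acts on the brainstem receptor GFRAL and is raised by p53, by ATF4 and by many kinds of tissue stress. It was 5.67, 6.47 and 8.62 TPM in WT (C57BL/6) livers and 21.0, 361 and 93.1 TPM in YAPKO livers, all 3 above WT but spread widely. In WT (mixed) livers Gdf15 was 7.72, 8.64 and 9.08 TPM and in YAPKO TAZHET livers 10.4, 8.31 and 7.70 TPM, which overlap. The log2 rise in YAPKO livers was 3.20 (SE 0.87, limma adjusted p = 0.0215) and the log2 fold change in YAPKO TAZHET livers was -0.25 (SE 0.13, limma adjusted p = 0.172). The rise was 2.17 without LM189 and 4.27 without LM74, both called, and lost its call without LM75, LM191 or LM192 (3.11, 3.16 and 3.15, limma adjusted p = 0.0532, 0.0598 and 0.0588) and with robust variance shrinkage (limma adjusted p = 0.0752).

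**Figure D2:**
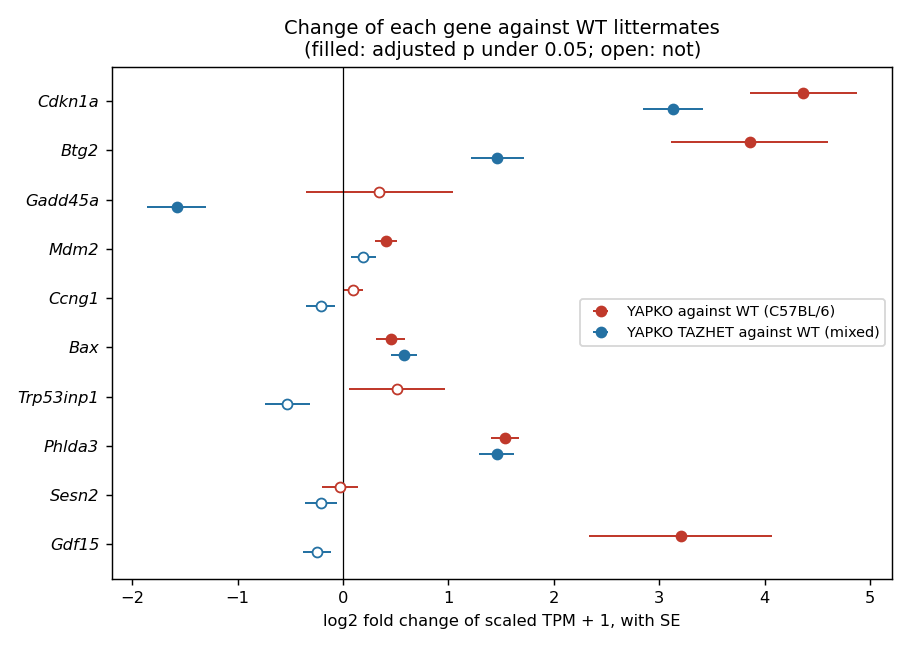
Log2 fold change of scaled TPM + 1 with its SE for the 10 genes in YAPKO livers (red) and YAPKO TAZHET livers (blue) against their own WT littermates, 3 mice a group, with filled points for an adjusted p under 0.05. Gdf15, Btg2 and Gadd45a lie farthest apart between the models, but their wide errors in YAPKO livers leave no gene of the 10 past the test of the difference.

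Gdf15 had the largest difference between the models, 3.45 on the log2 scale (SE 1.001, limma adjusted p = 0.766). With limma 0 of the 10 genes passed the test of this difference, in which 7 of 12159 genes (0.0576%) did, and 3 of the 10 (Gdf15, Btg2 and Gadd45a) had an unadjusted p under 0.05, beside 555 of all genes. Without LM74, Gdf15 passed it (4.52, limma adjusted p = 0.00591). The difference between the models is also a difference between genetic backgrounds, and these cannot be told apart. Between the WT groups, 0 of the 9 members tested were called by limma and 1 had an unadjusted p under 0.05, against 24 of 11126 genes (0.216%) called.

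The 3 YAPKO livers did not respond alike. LM189 was the highest of the 3 after scaling for 8 of the 10 genes, all but Ccng1 and Phlda3, whereas it was the highest for 34.2% of all genes tested. Relative to the littermates' mean the median over the 10 genes was 0.34 in LM74, 1.57 in LM189 and 0.39 in LM191 on the log2 scale. In YAPKO TAZHET livers this median was 0.16, -0.11 and 0.10. With LM189 left out, 4 genes (Cdkn1a, Btg2, Gdf15 and Phlda3) were called higher, beside 12.9% of all genes. The number called was also 4 without LM75, LM191 or LM192 and 5 without LM193, and Cdkn1a, Btg2 and Phlda3 were among them each time. In YAPKO TAZHET livers Cdkn1a, Btg2, Phlda3 and Bax were called higher and Gadd45a lower whichever mouse was left out. Trp53inp1 was called lower as well without LM226.

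**Figure D3:**
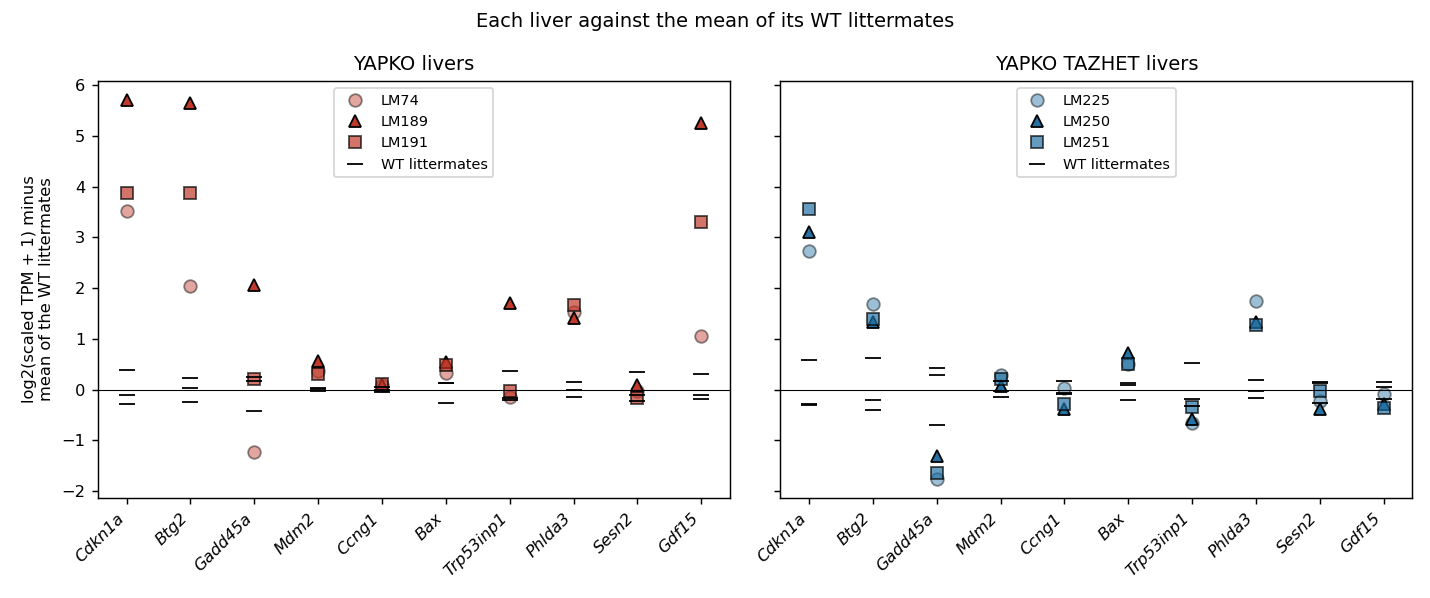
Each knockout liver against the mean of its WT littermates for the 10 genes, as a difference of log2(scaled TPM + 1), with bars for the WT littermates. LM189 (triangles, left) lies highest for Cdkn1a, Btg2, Gadd45a, Trp53inp1 and Gdf15, while the 3 YAPKO TAZHET livers lie close to each other.

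Immediate-early genes are switched on within minutes by growth factor and stress kinases. By their median they too were highest in LM189 among the YAPKO livers. Their summed level was 178 to 221 TPM in WT (C57BL/6) livers and 542 to 3711 TPM in YAPKO livers, and 170 to 262 TPM in WT (mixed) livers and 355 to 487 TPM in YAPKO TAZHET livers. Of 16 tested in YAPKO livers 11 rose and 0 fell, and of 15 tested in YAPKO TAZHET livers 8 rose and 0 fell, with medians of 2.45 and 1.14. Among all genes tested 18.8% and 19.2% were called higher and 17.9% and 19.0% lower. The median over the list was 1.22 in LM74, 3.46 in LM189 and 2.48 in LM191, in the same order as for Btg2 and Gdf15. Jun was 51.2, 533 and 314 TPM and Fos 19.8, 189 and 81.1 TPM in the same livers, from 9.01 to 11.5 TPM and 2.20 to 2.60 TPM in WT (C57BL/6) livers. Without LM189 9 of 15 rose in YAPKO livers. In the fit of all 12 libraries 3 of 17 rose in YAPKO TAZHET livers, where Fos (1.14, limma adjusted p = 0.145) and Jun (1.55, limma adjusted p = 0.0677) lost their calls, and 15 of 17 in YAPKO livers. Their part in the levels of Btg2, Gdf15, Gadd45a and Trp53inp1 was not tested.

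Targets of ATF4, the transcription factor of the integrated stress response, include Gdf15 and Sesn2. Atf3 stands in the list of ATF4 targets used here and in that of immediate-early genes. Of 13 tested in YAPKO livers 4 rose, led by Atf3 (log2 rise 3.92, limma adjusted p = 0.00288) and Asns, an asparagine synthetase (2.33, limma adjusted p = 5.54e-05), together with Ddit4, an mTORC1 inhibitor (1.85, limma adjusted p = 0.041), and Ppp1r15a (1.31, limma adjusted p = 0.0222). The lipoprotein receptor gene Vldlr fell (-1.19, limma adjusted p = 0.0208). In YAPKO TAZHET livers 3 of 13 rose, Asns (1.54), Atf3 (1.51) and Ddit4 (0.81), and 2 fell, Vldlr (-0.84) and Atf4 itself (-0.46, limma adjusted p = 0.0117). Of all genes tested, 18.8% were called higher and 17.9% lower in YAPKO livers, and 19.2% and 19.0% in YAPKO TAZHET livers. The counts in YAPKO TAZHET livers are near these shares. Asns reached the filter only through the knockout livers in each model, so that it could be tested only because it was higher there. The median was 0.59 in YAPKO livers and 0.34 in YAPKO TAZHET livers, and among YAPKO livers it was 0.15 in LM74, 1.47 in LM189 and 0.47 in LM191. The count of 4 higher fell to 2 without LM189 or LM192 and to 1 without LM191. The fall of Vldlr was not called in YAPKO livers without LM75 or LM193, 2 genes were called lower there without LM189, and 1 was called lower in YAPKO TAZHET livers without LM225, LM226, LM227 or LM251. Without scaling 0 of these falls passed the test. In the fit of all 12 libraries 1 of 13, Asns, was called higher in YAPKO TAZHET livers and 1, Atf4, lower, whereas Atf3 (limma adjusted p = 0.0509), Ddit4 (limma adjusted p = 0.207) and Vldlr lost their calls, and 2 were called lower in YAPKO livers.

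**Figure D4:**
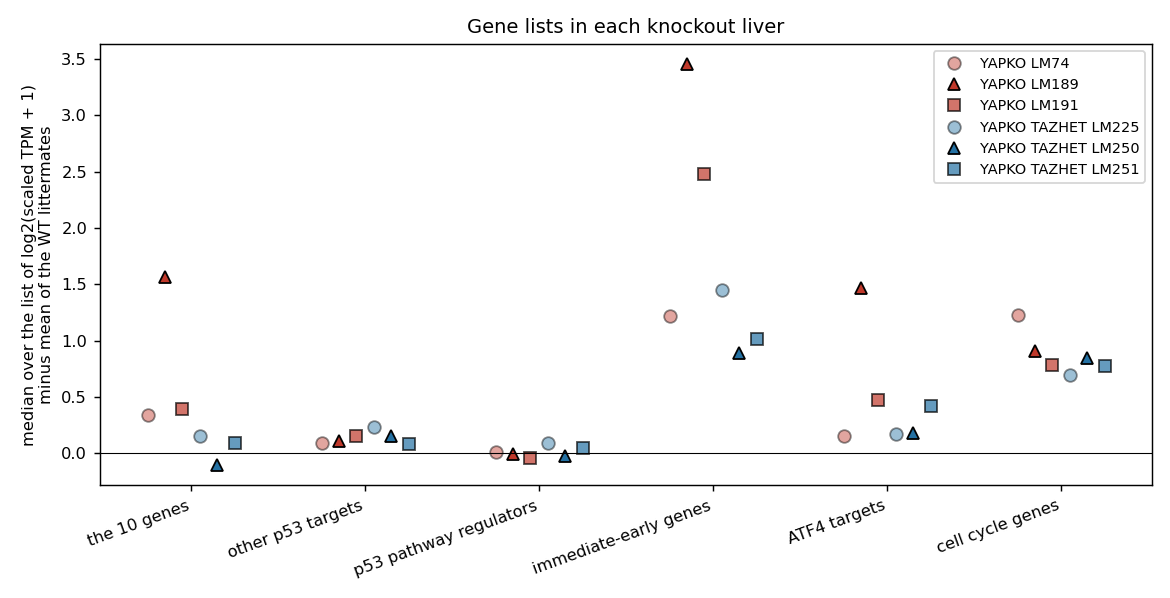
Median over each gene list of log2(scaled TPM + 1) minus the mean of the WT littermates, for each of the 3 YAPKO livers (red) and 3 YAPKO TAZHET livers (blue). LM189 stands highest for the 10 genes, for immediate-early genes and for ATF4 targets, whereas the other p53 targets lie between 0.08 and 0.24 in all 6 livers.

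Trp53 itself (chr11:69580359-69591873), which encodes p53, was 15.9, 16.8 and 18.5 TPM in WT (C57BL/6) livers and 29.95, 25.1 and 26.5 TPM in YAPKO livers. In WT (mixed) livers it was 21.9, 14.3 and 17.1 TPM and in YAPKO TAZHET livers 29.6, 30.8 and 26.5 TPM. The log2 rise of Trp53 in YAPKO livers was 0.30 (SE 0.10, limma adjusted p = 0.0494), a call lost in each of the 6 fits that left out 1 mouse (limma adjusted p of 0.0585 to 0.152), and the log2 fold change in YAPKO TAZHET livers was 0.38 (SE 0.14, limma adjusted p = 0.0589). Of 14 regulators of the p53 pathway tested, Trp53 was the only one called higher in YAPKO livers, and Cop1, a ubiquitin ligase of p53, was lower (-0.61, limma adjusted p = 0.00351). In YAPKO TAZHET livers Cop1 (-0.58) and the deubiquitinase gene Usp7 (-0.35, limma adjusted p = 0.0182) were lower and 0 were higher. None of these falls passed the test without scaling. The protein level and modification of p53, through which it is mostly controlled, were not measured.

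Of 41 other p53 targets 37 were tested in each model. In YAPKO livers 11 rose and 5 fell, and in YAPKO TAZHET livers 11 rose and 5 fell, with medians of 0.12 and 0.13 beside -0.04 for all genes. Of all genes tested, 18.8% and 19.2% were called higher. The number that rose in both was 10, which is 10 of 11 in each list, and 3 of 5 fell in both, where of all genes called higher 78.3% of those in YAPKO livers and 76.5% of those in YAPKO TAZHET livers were shared, and of those called lower 71.8% and 67.3%. Thbs1, encoding thrombospondin 1, rose by 2.30 in YAPKO livers (SE 0.40, limma adjusted p = 0.00317) and 1.29 in YAPKO TAZHET livers (SE 0.21, limma adjusted p = 0.00223). The death receptor gene Tnfrsf10b was 0.107 to 0.267 TPM in WT (C57BL/6) livers and 2.51 to 5.20 TPM in YAPKO livers, a log2 rise of 1.77 (SE 0.20, limma adjusted p = 0.000398), and 0.220 to 0.359 TPM in WT (mixed) livers and 2.56 to 3.38 TPM in YAPKO TAZHET livers, a rise of 1.44. Pmaip1, encoding the BH3-only protein Noxa, rose by 1.02 and 1.27, Dram1, a lysosomal membrane protein gene, by 0.95 and 0.95, the mitotic gene Ckap2 by 1.45 and 0.77 and the ephrin receptor gene Epha2 by 1.28 and 0.65. Tnfrsf10b, Thbs1, Ckap2 and Dram1 lay near the floor and could be tested in 9 of 13 alternatives in each model. The same held for Pmaip1 in YAPKO livers. There these genes reached the filter only through the knockout livers, so that they could be tested only because they were higher in them. The filter thus in part fixes the counts of targets that rose.

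Among the targets that fell, Dcxr, encoding a xylulose reductase, was 179 to 244 TPM in WT (C57BL/6) livers and 80.1 to 114 TPM in YAPKO livers, and its log2 fold changes were -1.48 (SE 0.18, limma adjusted p = 0.000526) and -1.37 (SE 0.14, limma adjusted p = 0.000207). Igfbp3, an IGF binding protein gene, fell by 1.83 and 1.64 in the 2 models, and the liver glutaminase gene Gls2 fell by 0.72 and 0.68. Ei24 and Gpx1 fell in YAPKO livers (-0.45 and -0.43) and Fdxr and Sulf2 in YAPKO TAZHET livers (-0.62 and -0.51). Of these falls only those of Dcxr and Igfbp3 passed the test without scaling. A fit without 1 knockout mouse tests fewer of these genes, since those under 1 TPM in WT livers then have only 2 knockout libraries to reach the filter. The count of 11 higher in YAPKO livers was 5, 4 and 5 without LM74, LM189 and LM191 (30, 30 and 31 genes tested), beside 14.1%, 12.9% and 13.5% of all genes, and that in YAPKO TAZHET livers was 7, 6 and 7 without LM225, LM250 and LM251 (32, 33 and 32 tested), beside 16.5%, 12.5% and 11.9%. The 4 of 30 without LM189 is near the share of all genes. With a floor of 5 TPM 4 of 26 and 3 of 24 rose, beside 18.1% and 17.3% of all genes, and thus no more than that share. At that floor 5 and 5 fell, beside 21.8% and 23.4% of all genes. With every gene above 0 tested, 10 of 40 and 12 of 40 rose, beside 14.1% and 14.7% of all genes. Then 2 and 5 fell, beside 11.9% and 12.8%. The count of 5 lower was 3 without LM74, LM75, LM189, LM191 or LM192 in YAPKO livers and 3 without LM227 or LM251 in YAPKO TAZHET livers.

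The families of the 10 genes hold 18 close relatives, of which 17 were tested in each model (Btg4 was listed at 0 in all livers), and Sesn1 stands in this list and in that of other p53 targets. Mdm4 is also among the p53 pathway regulators and Sesn3 among the ATF4 targets. In YAPKO livers 7 rose and 2 fell, and in YAPKO TAZHET livers 5 rose and 4 fell, with medians of 0.19 and 0.25. Among all genes tested 18.8% and 19.2% were called higher and 17.9% and 19.0% lower. The number that rose in both was 5, namely Gadd45g, Phlda2, Btg3, Bok and Ccng2. Gadd45g was 6.54 to 26.5 TPM in WT (C57BL/6) livers and 97.8 to 212 TPM in YAPKO livers, and 6.11 to 14.1 TPM in WT (mixed) livers and 91.4 to 118 TPM in YAPKO TAZHET livers, a log2 rise of 3.01 (SE 0.49, limma adjusted p = 0.00226) and 2.99 (SE 0.25, limma adjusted p = 8.69e-05). Gadd45b rose in YAPKO livers (2.51, SE 0.72, limma adjusted p = 0.0273), with 8.71, 86.2 and 52.7 TPM against 3.40 to 4.82 TPM, and its log2 fold change in YAPKO TAZHET livers was 0.60 (limma adjusted p = 0.0675). In all 3 genes LM189 was the highest YAPKO liver.

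Phlda2, a paralog of Phlda3, was at 0 or at most 0.269 TPM in the 6 WT livers. It was 1.40 to 13.2 TPM in YAPKO livers and 10.5 to 14.1 TPM in YAPKO TAZHET livers. Its log2 rises were 2.40 and 3.55. Phlda2 reached the filter only through the knockout livers, so that it could be tested only because it was higher there. Phlda1 fell by 0.80 and 0.90. Among the antiproliferative genes, Btg3 was 1.59 to 1.69 TPM in WT (C57BL/6) livers and 12.2 to 14.9 TPM in YAPKO livers and rose by 2.17 (SE 0.13, limma adjusted p = 1.77e-05) and 1.52, Btg1 rose by 0.72 in YAPKO livers, and Tob1 and Tob2 fell in YAPKO TAZHET livers (-0.87 and -0.74). Bok, a pro-apoptotic relative of Bax, rose by 1.95 (SE 0.16, limma adjusted p = 8.59e-05) and 1.52, whereas Bak1 did not pass the test (0.32 and 0.42, limma adjusted p = 0.112 and 0.158). Ccng2 rose by 0.77 and 0.83 and Trp53inp2 fell by 0.50 and 0.75. Without scaling, the falls of Trp53inp2 in YAPKO livers and of Phlda1 and Tob2 in YAPKO TAZHET livers did not pass the test. The inhibitors Cdkn1b, encoding p27, and Cdkn1c, encoding p57, did not pass the test (0.19 and 0.19 for Cdkn1b, -0.09 and -0.54 for Cdkn1c), so that of the 3 CIP and KIP genes Cdkn1a was the one called. Mdm4, Sesn1 and Sesn3 did not pass it either, with log2 fold changes between -0.08 and 0.25. The count of 7 higher in YAPKO livers was 3 without LM189, 4 without LM192 or LM193 and 4 with every gene above 0 tested, and that of 5 in YAPKO TAZHET livers was 3 without LM251.

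**Figure D5:**
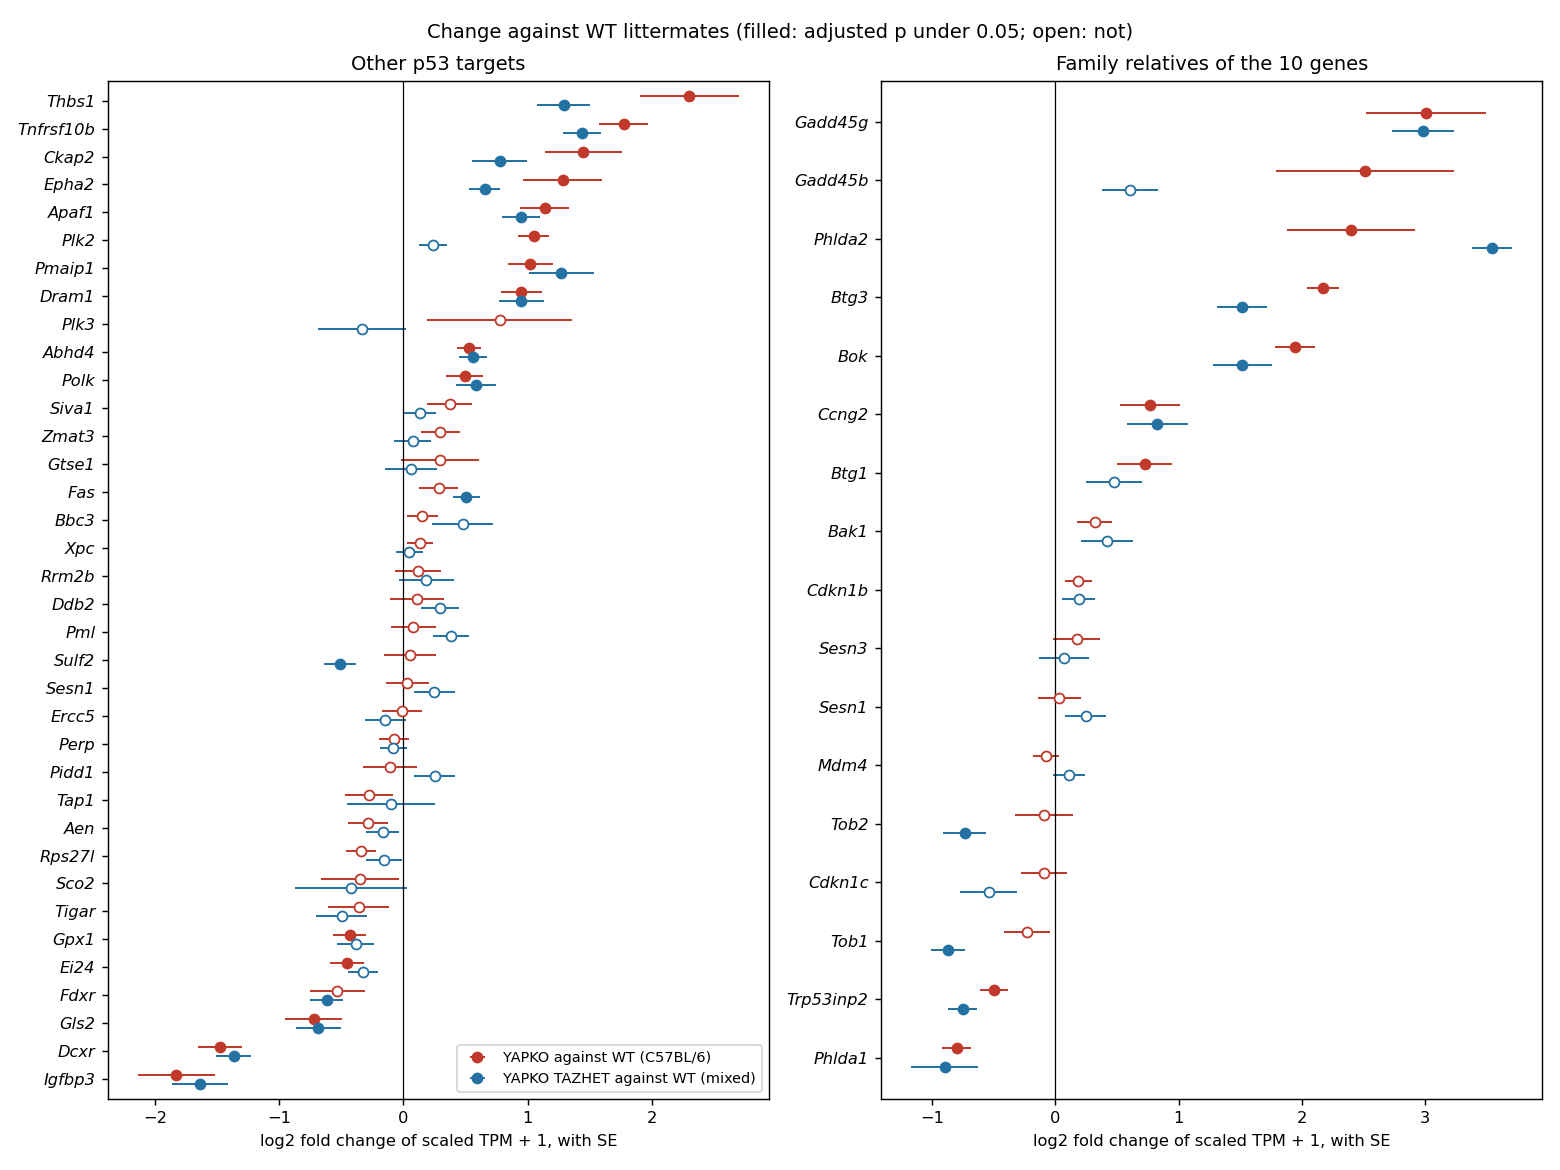
Log2 fold change of scaled TPM + 1 with its SE for the other p53 targets (left) and the family relatives (right) that were tested, with 1 target left out, in YAPKO livers (red) and YAPKO TAZHET livers (blue), 3 mice a group, with filled points for an adjusted p under 0.05. Of the targets shown, Thbs1 lies highest and Igfbp3 lowest in YAPKO livers, and among the relatives Gadd45g lies at 3.01 and 2.99 and Phlda2 at 2.40 and 3.55 in YAPKO and YAPKO TAZHET livers.

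Cell cycle genes that p53 and p21 hold down through the DREAM complex were higher in sum in the knockout livers than in their littermates. Their summed level was 57.8 to 64.4 TPM in WT (C57BL/6) livers and 107 to 196 TPM in YAPKO livers, and 59.6 to 81.1 TPM in WT (mixed) livers and 111 to 124 TPM in YAPKO TAZHET livers. Of 21 tested in YAPKO livers 14 rose and 0 fell, and of 20 tested in YAPKO TAZHET livers 12 rose and 1, Ccne2, fell, with medians of 0.97 and 0.77, beside 18.8% and 19.2% of all genes called higher. Many of these genes reached the filter only through the knockout livers, so that the filter in part fixes these counts. With every gene above 0 tested, 16 of 28 and 13 of 28 rose, beside 14.1% and 14.7% of all genes. Among YAPKO livers the median over the list was 1.23 in LM74, 0.91 in LM189 and 0.79 in LM191. This order is neither that of Cdkn1a in the same 3 livers nor its reverse. The kinase gene Plk1 rose by 1.61 and 1.33 and the cyclin gene Ccnb1 by 1.32 and 1.502. Fewer of these genes were tested without a knockout mouse, and the counts of rises were then 5, 5 and 7 without LM74, LM189 and LM191 (12 tested each) and 5, 4 and 3 without LM225, LM250 and LM251 (13 tested each), and with a floor of 5 TPM 2 of 3 and 2 of 4 rose. Ccne2 was below the level needed for a test without LM226, LM227 or LM230. Whether the same cells held p21 and cell cycle RNA cannot be read from whole tissue.

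Markers of some other cell types moved with the groups. Those of macrophages and Kupffer cells summed to 227 to 286 TPM in WT (C57BL/6) livers, 548 to 797 TPM in YAPKO livers, 194 to 363 TPM in WT (mixed) livers and 747 to 811 TPM in YAPKO TAZHET livers, and 7 of 8 rose in each model. For stellate cells and fibroblasts the sums were 35.7 to 52.6, 231 to 295, 33.4 to 54.0 and 135 to 183 TPM in the same order of groups, and 4 of 8 rose in each model, the collagen genes Col1a1, Col1a2 and Col3a1 and Pdgfrb, while Lrat fell in YAPKO livers. Monocyte and neutrophil markers summed to 10.5 to 15.8, 53.1 to 61.3, 6.29 to 9.01 and 14.9 to 60.3 TPM, of which 6 of 6 tested rose in YAPKO livers and 3 of 6 in YAPKO TAZHET livers. The filter in part fixes the 6 of 6. Without LM74, LM189 and LM191, 4 of these markers could be tested each time, and 2, 2 and 4 rose, beside 14.1%, 12.9% and 13.5% of all genes. Bile duct markers summed to 36.7 to 64.3, 336 to 759, 50.3 to 66.9 and 110 to 231 TPM, but 2 of 5 tested, Spp1 and Sox9, rose in each model, Epcam fell in YAPKO TAZHET livers, and the median was 0.28 and 0.29. These sums are RNA levels and do not count ducts. By staining for the bile duct protein CK19, the paper found no intrahepatic ducts in adults of either model. Hepatocyte markers summed to 101900 to 116400 TPM in WT (C57BL/6) livers and 77980 to 87650 TPM in YAPKO livers, and to 92400 to 116500 TPM in WT (mixed) livers and 75290 to 91250 TPM in YAPKO TAZHET livers, and 4 of 8 fell in each model. In YAPKO livers the median of these 8 was -0.41. Without scaling it was -0.05 and 3 fell, beside 7.13% of all genes. With quantile normalization it was 0.11 and 2 fell, beside 18.0% of all genes. The sums overlapped between knockout livers and littermates for endothelial markers (77.6 to 85.1 against 73.5 to 109.5 TPM and 100.9 to 105.8 against 88.4 to 124.6 TPM), of which 0 of 6 rose and 2 fell in YAPKO livers and 1 rose and 2 fell in YAPKO TAZHET livers. They overlapped also for T, B and NK cell markers (6.47 to 10.1 against 5.28 to 15.1 TPM and 5.16 to 8.75 against 7.15 to 8.25 TPM), of which 0 of 3 tested with limma were called in YAPKO livers, 1 at an unadjusted p under 0.05, and 1 of 4 rose in YAPKO TAZHET livers. Beside the counts of the scaled fits of 6 libraries, 18.8% and 19.2% of all genes tested were called higher and 17.9% and 19.0% lower in the 2 models. No marker of these 7 lists was at 0 in all 12 livers. Each of the 10 genes can be expressed by several of these cell types, and the part of the shift in cell types in their changes was not tested.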

How the data were processed

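Whole livers of 12 female mice were sequenced in 4 groups of 3. The authors processed the reads in CLC Genomics Workbench against GRCm38.p6 and deposited 2 tables of TPM for 41743 genes. The same tables hold their own comparisons (fold changes, p-values, corrected p-values and group maxima), and these columns were not used. TPM keeps no counts, so no count test was run. Every TPM column could be given to a mouse.

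Libraries were scaled by a trimmed mean of log ratios, leaving out the outer 30% of the ratios and the outer 5% of the levels on either side. Genes reaching 1 TPM in 3 or more of the libraries fitted were tested on log2(scaled TPM + 1) with limma 3.58.1 (variance trend, two-sided) in R 4.3.3, with Benjamini-Hochberg adjustment over all of them and a threshold of 0.05. A separate fit of 6 libraries served each model, and a contrast over all 12 gave how the models' changes differed. The steps were tested on simulated data. Near-identical copies of the 10 genes were sought with blastn 2.17.0 (90% identity over 30% of the length), and 0 were found. Tables were summarised in Python 3.11.15.

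The 10 genes, the other lists and the tests were chosen with earlier results of these data known. Named were the 10 genes, Trp53, Yap1, Wwtr1, the relatives of the 10 genes, the 5 genes most like Cdkn1a and Gdf15 and, of each other list, at most the 5 largest rises and falls past the threshold in each model. Of the other p53 targets, 1 that enters the counts is not reported here by name. Alternatives were a pseudocount of 0.1, testing every gene above 0, a floor of 5 TPM, unscaled TPM, quantile normalization, robust shrinkage of variances, 1 fit of all 12 libraries, and leaving out each mouse. The sources used here do not say which mice shared a litter, and p-values measure the spread between these mice.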

Additional observations from a re-analysis of the deposited data

Results flagged for a closer look

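Yap1 fell in both models, and its change differed between them by the test of the difference itself, in which it was among the 7 genes that passed with limma. The log2 fold change was -3.51 in YAPKO livers and -1.93 in YAPKO TAZHET livers, a difference of -1.59. In TPM, the 3 YAPKO livers held 1.67 to 3.72 and the 3 YAPKO TAZHET livers 8.63 to 11.5. The difference between the models is also one between genetic backgrounds, and these cannot be told apart. None of the 10 genes passed that test with limma, and groups of 3 are too small for a test of single outlying livers.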

How the results depend on the processing

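No paired analysis was possible because each mouse has a number of its own and no number is shared between groups. The direction and the side of the threshold held for 1651 of 1846 values of single genes, 132 lost their call, 30 gained one and 33 turned direction. Of the 33, 1 had been called, the fall of Gpx1 in YAPKO livers. Without scaling these were Sesn2 0.28, Tob1 0.13, Tob2 0.25, Usp7 0.18, Cdkn1c 0.18, Mdm4 0.25 and Ccne2 0.01 in YAPKO livers and Ccng1 0.10, Gdf15 0.04 and Sesn2 0.07 in YAPKO TAZHET livers. With quantile normalization they were Tob1 0.07, Sulf2 -0.04, Sesn1 -0.04 and Gpx1 0.06 in YAPKO livers and Gpx1 0.06 in YAPKO TAZHET livers. With each mouse left out in turn, the log2 fold changes in YAPKO livers ran over Trp53inp1 -0.09 to 0.84, Gadd45a -0.52 to 1.13, Sesn2 -0.15 to 0.14, Tob2 -0.27 to 0.20, Sulf2 -0.15 to 0.20, Cdkn1c -0.23 to 0.07, Sesn1 -0.09 to 0.18 and Ccne2 -0.42 to 0.02, that of Sesn3 -0.06 to 0.31 in YAPKO TAZHET livers, and the difference between the models for Phlda3 -0.02 to 0.23, which was -0.03 with pseudocount 0.1. The cause was not tested.

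Of the 10 genes, 3 were called in YAPKO TAZHET livers in the fit of all 12 libraries, against 5. With 1 mouse left out, 2833 to 4069 genes were called in YAPKO TAZHET livers against 4486, the fewest without LM251, and 3100 to 3965 in YAPKO livers against 4295. The difference between the models was called for 3 genes with pseudocount 0.1, for 2 without a filter and for 3 to 20 with 1 mouse left out, against 7, the most without LM74, when 0 to 1 of the 10 genes was called. Between the WT groups 15 genes were called without a filter and 9 to 28 with 1 mouse left out, against 24. TPM holds no counts, so that what depth limits could not be given.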

Other observations

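The INK4 inhibitors block Cdk4 and Cdk6, whereas p21 acts on a wider set of kinases. Of the 4 genes, 2 reached the level needed for a test in each model. Cdkn2c, encoding p18, was 6.24 to 7.86 TPM in WT (C57BL/6) livers and 12.9 to 16.3 TPM in YAPKO livers, and 5.56 to 6.48 TPM in WT (mixed) livers and 10.8 to 14.6 TPM in YAPKO TAZHET livers. All knockout livers lay above their littermates, and the log2 rise was 0.65 (SE 0.13, limma adjusted p = 0.00701) and 0.65 (SE 0.12, limma adjusted p = 0.00436).

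Of the 12159 genes tested over all 12 livers, Dyrk3, a dual-specificity kinase gene, had the pattern of log2(scaled TPM + 1) most like that of Cdkn1a (Pearson's r 0.986, Spearman's rho 0.923). It was followed by the MAP kinase phosphatase genes Dusp10 (r 0.985, rho 0.972) and Dusp8 (r 0.983, rho 0.853), 1700017B05Rik (r 0.979, rho 0.916) and BC016579 (r 0.978, rho 0.923). Among the other 9 members the closest to Cdkn1a were Btg2 (r 0.904) and Phlda3 (r 0.898), and Ccng1 (r -0.19), Sesn2 (r -0.18) and Gadd45a (r -0.03) were unlike it. These values are a description of 12 livers that fall into WT and knockout, and the share due to that split was not tested.

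Gdf15 was most like Ier2 (r 0.969, rho 0.406), the chemokine gene Cxcl2 (r 0.960, rho 0.301), H3f3b (r 0.956, rho 0.434), Gadd45b (r 0.950, rho 0.378) and Zfp36 (r 0.95, rho 0.552). Ier2, Gadd45b and Zfp36 are early response genes. In each of these pairs rho was well below r, and how far r rests on the highest YAPKO livers was not tested.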
